A study of Xenopus laevis with 16 samples.

Results

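The late genes of the GATA4 response were gene models whose RNA stood close to control through 7.5 h and well above it at 24 h in both treatments with GATA4, but not with Nodal5. There were 74 of them among the 30841 gene models with a total of at least 50 counts. They were selected on measured values. For each gene model the level L was log2(CPM + 1), where CPM is the usual counts-per-million value after TMM scaling of the libraries, and D was L minus L of the control of the same hour. A member had D between -0.5 and 0.5 in all 3 treatments at 2.5, 5 and 7.5 h, D of 2 or more in both GATA4 treatments at 24 h, and D below 0.5 with Nodal5 at 24 h. The list is capped at 300 and the cap was not reached.

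RNA-seq was done on Xenopus laevis animal caps, the ectodermal roof cut from blastula embryos, after 2.5, 5 and 7.5 h and again after 24 h of incubation. The control explants came from uninjected embryos and are labelled AC. GATA4-GR explants, labelled G4, carried mRNA for GATA4 fused to a glucocorticoid receptor domain and were treated with dexamethasone, whereas the explants labelled G4D also received the Wnt antagonist Dkk-1. Nodal5 explants, labelled Xnr, carried nodal5 mRNA. The study does not state whether the control and Nodal5 explants also received dexamethasone. If they did not, effects of GATA4 and of dexamethasone cannot be told apart in these libraries, and "with GATA4" below covers both. Each of the 16 libraries was made from many pooled explants and there was 1 library per treatment and hour, so no difference at a single hour has a replicate error. All the 24 h comparisons share 1 control library. As the explants are mixed tissue, fewer cells of a type and less RNA per cell cannot be told apart.

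GATA4 is a zinc finger transcription factor that binds GATA motifs and is needed for heart development, with further roles in endoderm. The fusion protein stays inactive until dexamethasone is added, which sets the start of the time course. Dkk-1 is a secreted protein that blocks canonical Wnt signalling at its LRP co-receptors, and Wnt antagonism favours heart formation in the early embryo. Nodal ligands of the TGF-beta family induce mesoderm and endoderm. Animal caps left alone form epidermis. When such explants are induced to a new fate, genes for regulatory proteins are usually switched on within hours and genes for the proteins of differentiated tissue follow. To which of these kinds the members belong was not determined, because none of the 54142 identifiers in the table could be paired with a gene name.

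Library totals ran from 11339829 to 23310320 expected counts. The TMM factors were 1.02 to 1.10 in the 12 earlier libraries and 0.71 to 0.914 in the 4 libraries of 24 h, with the lowest in the control. In the labels the library names of the 4 libraries of 5 h, 1 per treatment, end in "reseq", which no other library name does.

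D of 2 or more at 24 h was reached by 3.58% of all gene models in the GATA4-GR library, by 3.72% when Dkk-1 was added and by 2.91% in both, and the 74 members are drawn from these by the rule. The limit on Nodal5 at 24 h was met by 78.8% of gene models and the limit on the 3 early hours by 54%. Without any limit on the early hours, 307 gene models had the 24 h pattern, with GATA4 high and Nodal5 not. The 74 members are 24.1% of these, and 207 of the 307 were already above control by 0.5 or more in at least 1 GATA4 library at an early hour. Of the 307, 75 stood above control by 0.5 or more in both GATA4 treatments at 2.5 h, and this number was 131 at 5 h and 157 at 7.5 h. How many of all gene models stood above control by 0.5 at these hours was not counted. No background share therefore stands beside these counts, and they are a description only. The members are thus the smaller share of the gene models that were high with GATA4 and not with Nodal5 after a day. They are late only by the limit on L, which a gene model near 0 CPM can meet while its counts differ from control.

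The limits of the rule cut through a continuous range. The 3 members closest to the 24 h limit had a smaller D of the 2 GATA4 treatments of 2.03, 2.06 and 2.06, and the 3 gene models just outside had 2.00, 1.99 and 1.99. For the Nodal5 limit the values were 0.50, 0.49 and 0.47 inside and 0.52, 0.52 and 0.52 outside. For the largest early D in either direction they were 0.50, 0.49 and 0.48 inside and 0.52, 0.52 and 0.54 outside. With 0.5 added to the CPM in place of 1, the rule gave 65 members, of which 35 were among the 74.

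At 24 h the members stood apart in the libraries that had chosen them. CPM ran from 3.17 to 236 (median 8.97) with GATA4-GR and from 3.44 to 168 (median 8.40) with GATA4-GR+Dkk-1. In control it ran from 0 to 29.2 (median 0.165) and with Nodal5 from 0 to 19.6 (median 0.175). Most members were therefore of modest abundance where high and close to undetected where low. D was 2.03 to 4.79 (median 2.68) with GATA4-GR and 2.07 to 4.63 (median 2.64) with GATA4-GR+Dkk-1, and the medians over all gene models were -0.01 and -0.02. These D values describe the selection.

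**Figure D1:**
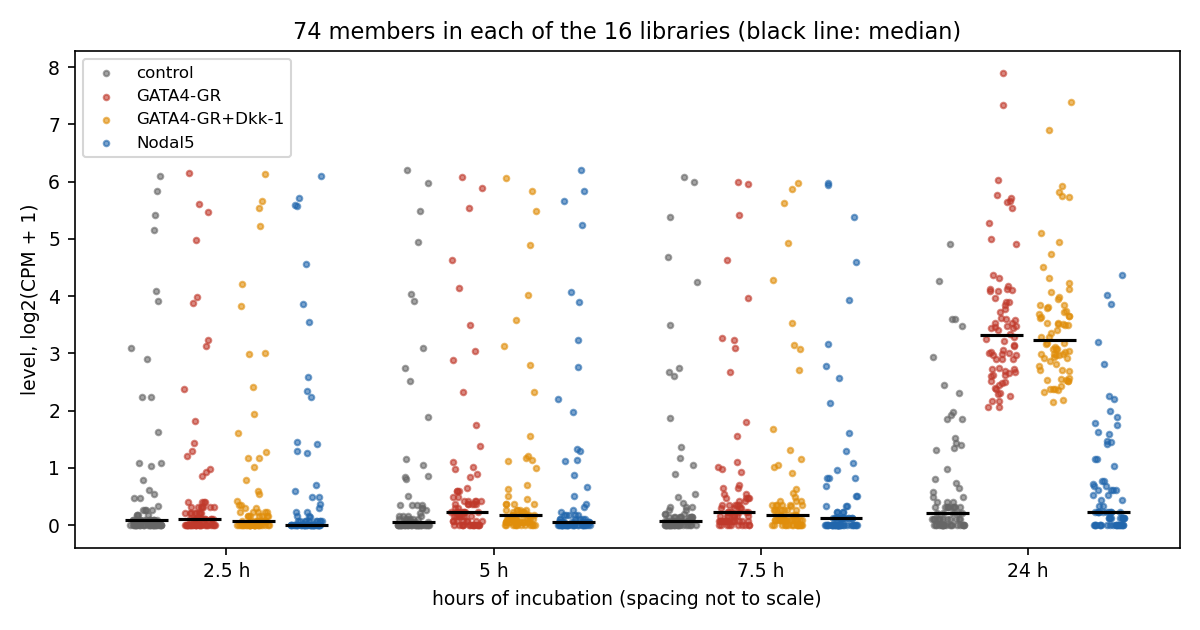
Level of each of the 74 members, as log2(CPM + 1), in each of the 16 libraries, grouped by hour and coloured by treatment. Each point is 1 member and the black line is the median. The bulk of the members lie near 0 in all libraries except those of both GATA4 treatments at 24 h, where CPM had medians of 8.97 and 8.40.

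The counts behind these levels were low outside the 2 GATA4 libraries of 24 h. In the control at 24 h, 21 of the 74 members had no count, 26 had 1 to 3 counts and 27 had more. With Nodal5 the numbers were 20, 22 and 32, and 12 members were at 0 in both. In contrast, no member had fewer than 41 counts with GATA4-GR (median 116) or 56 with GATA4-GR+Dkk-1 (median 137). For 18 members no library other than these 2 held more than 3 counts. These 18 were detected with GATA4 at 24 h and were at or near the limit of detection in the 14 other libraries.

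Folds over control follow from these counts. Where the control had more than 3 counts (27 members), the linear ratio of CPM was 4.67 to 41.4 (median 11.1) with GATA4-GR and 4.69 to 27.5 (median 7.66) with GATA4-GR+Dkk-1. Where the control was at 0 (21 members), 3 counts in the control library were taken as the limit that a count of 0 allows. The level was then at least 12.9-fold to 65.2-fold higher with GATA4-GR and 13.9-fold to 76.3-fold with GATA4-GR+Dkk-1. No range is given for the 26 members with 1 to 3 counts in control. D understates the change of such low gene models because 1 is added to every CPM.

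The member with the highest smaller D of the 2 GATA4 treatments was Xelaev16008970m.g. At the 4 hours in turn it had 1, 0, 0 and 1 counts in control, 1, 0, 1 and 3 with Nodal5, 2, 0, 2 and 374 with GATA4-GR and 2, 1, 1 and 419 with GATA4-GR+Dkk-1. It was thus next to undetected in 14 libraries and well covered in the other 2. The CPM ratio to control at 24 h was 352 with GATA4-GR (95% exact interval for counting error only, 62.8 to 13900) and 313 with GATA4-GR+Dkk-1 (55.8 to 12400). With Nodal5 it was 3.19, with an interval of 0.256 to 167 that takes in 1. The ratios rest on 1 count in control. The member was chosen on its 24 h values, so the intervals cover counting error alone and test nothing.

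The course within each treatment was then followed, because a gene model can stand above control at 24 h either by rising with GATA4 or by falling in the control. From 7.5 to 24 h, L rose by 1 or more in both GATA4 treatments in 70 of the 74 members, compared with 15.7% of all gene models. The rule used the 24 h levels, so this count is a description and not a test. In the control, L fell by 1 or more in 6 members, rose by 1 or more in 6 and stayed within 1 in 62, and 17.2% of all gene models fell by that amount. The 2 shares cannot be compared, because L cannot fall by 1 where it starts below 1, and only 13 of the 74 members had a control L of 1 or more at 7.5 h. With library totals in place of TMM factors, the control fell in 12 of 81 members.

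The members were divided into 2 kinds by their level before 24 h. Averaged over the 12 early libraries, 60 of the 74 (81.08%) were under 1 CPM, against 31.04% of all gene models, and 14 were at 1 CPM or more. With a limit of 0.5 CPM the split was 58 and 16, and with 2 CPM it was 64 and 10. The smaller class thus depends on where the limit is set. The class and the rule together fix the rise of these 60 with GATA4, and a fall of 1 in control was possible in only 1 of them. Their median change from 7.5 to 24 h was 0.08 in control and 0.12 with Nodal5, against 2.95 for GATA4-GR and 2.91 when Dkk-1 was added. Their levels with GATA4 at 24 h were thus well above those of 7.5 h.

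The 14 members present early were more varied. Their median change was 2.24 with GATA4-GR and 1.57 with GATA4-GR+Dkk-1, with -0.73 in control and -0.81 with Nodal5. In 8 of them both GATA4 treatments rose by 1 or more and the control did not fall by 1, and in 2 the GATA4 treatments rose while the control fell. In the other 4 the control fell and neither GATA4 treatment rose by 1. The control thus fell in 6 of 14, and among all gene models at 1 CPM or more early it fell in 24.5%. The rule favours gene models with a low control at 24 h, so these 2 shares cannot be compared.

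For these 4 the name of late gained genes did not hold. The control dropped by 1.64 to 2.38 on the log2 scale from 7.5 to 24 h and Nodal5 by 1.17 to 1.96, while L changed by -0.20 to 0.92 with GATA4-GR and by -0.23 to 0.45 with GATA4-GR+Dkk-1. In control the CPM at 24 h was 0.179 to 0.270 times that of 7.5 h, so the RNA was reduced and not absent. With GATA4-GR it was 0.870 to 1.94 times that of 7.5 h. Whether GATA4 maintained this RNA was not tested. Their mean early CPM was 13.2 to 65.9, and their smaller D of 2.03 to 2.35 put them at ranks 46 to 74 of the 74.

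The clearest of the 4, chosen after its values were seen for the largest fall in control, was Xelaev16023728m.g. At the 4 hours in turn its CPM was 67.9, 62.2, 62.5 and 11.2 in control and 67.8, 72.3, 62.3 and 15.3 with Nodal5. With GATA4-GR it was 70.5, 66.7, 61.3 and 53.4, and with GATA4-GR+Dkk-1 it was 68.8, 66.3, 62.2 and 52.8. All 4 treatments lay together through 7.5 h, and at 24 h both GATA4 libraries were a little lower than before and the other libraries far lower. The 24 h counts were 136 in control, 175 with Nodal5, 690 with GATA4-GR and 861 with GATA4-GR+Dkk-1, a CPM ratio to control of 4.77 and 4.72 in the GATA4 treatments and 1.37 with Nodal5.

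**Figure D2:**
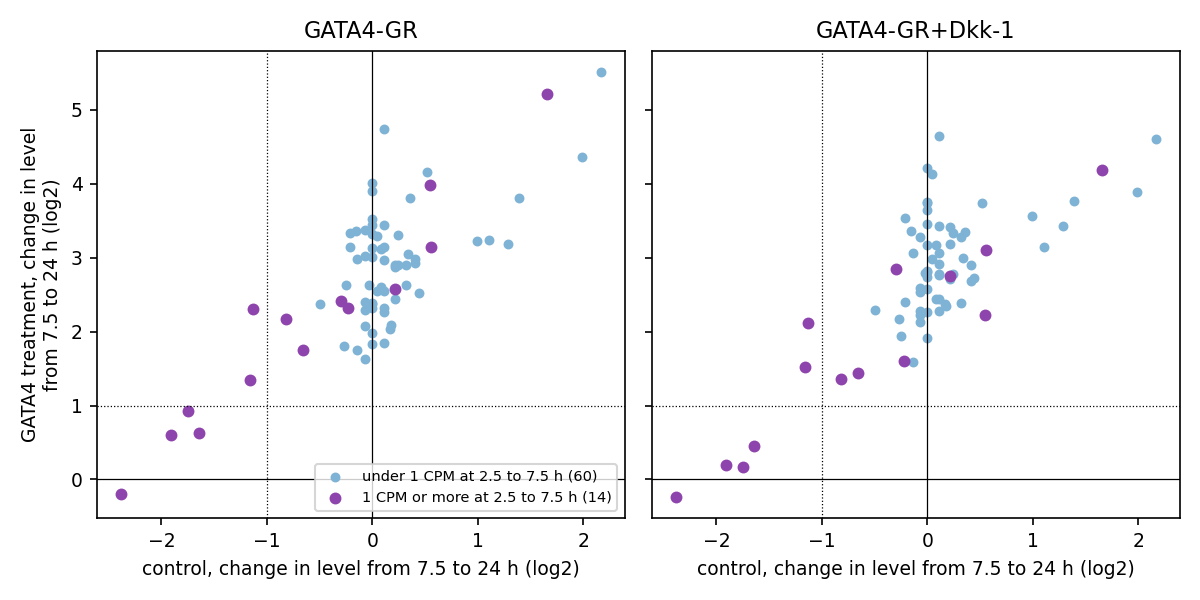
Change in level from 7.5 to 24 h (log2) in control on the horizontal axis and in GATA4-GR (left) or GATA4-GR+Dkk-1 (right) on the vertical axis, 1 point per member. Light points are the 60 members under 1 CPM early and dark points the 14 at 1 CPM or more, with dotted lines at a fall of 1 in control and a rise of 1 with GATA4. The 4 dark points at the lower left are members that fell in control and did not rise by 1 with GATA4.

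The sums over members gave the scale of the 2 kinds. At 24 h the 60 low members together held 20.2 CPM in control, 21.6 with Nodal5, 559 with GATA4-GR and 534 with GATA4-GR+Dkk-1, so that the sum with Nodal5 was 1.07 times that of control against 27.6 and 26.4 times with GATA4. The 14 others together held 103 CPM in control, 81.8 with Nodal5, 801 with GATA4-GR and 634 with GATA4-GR+Dkk-1. Much of the sums with GATA4 came from 2 of these members. They held 236 and 160 CPM with GATA4-GR, and 119 and 168 with GATA4-GR+Dkk-1.

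The rule held the L of each member close to control through 7.5 h, which leaves room for differences in counts near 0, so the early counts of the 60 low members were summed as a description. At 5 h they came to 109 counts in control and 114 with Nodal5, against 196 in the GATA4-GR library and 198 where Dkk-1 was added. On the CPM scale the ratio to control was 2.62 for GATA4-GR, 1.94 for GATA4-GR+Dkk-1 and 1.11 for Nodal5. The sums of both GATA4 libraries were the higher ones at this hour. A gene model near 0 CPM can multiply several-fold without L moving by 0.5.

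At 7.5 h the control summed to 100 counts against 197 for GATA4-GR, 132 for GATA4-GR+Dkk-1 and 66 for Nodal5, and the CPM ratios were 2.21, 1.76 and 1.12 in that order. With 2 in place of 1 added to the CPM in the rule, the members it then chose gave 3.73 for GATA4-GR at 7.5 h. At 2.5 h the ratios were 1.42, 1.32 and 0.755, so the GATA4 libraries were closest to control at the first hour. Over all 5123 gene models that were also under 1 CPM early and met the early limit, the ratios at the 3 early hours lay between 0.917 and 1.11 in the 3 treatments. These 5123 were not matched to the members for level. In control at 5 h they held 39196 counts, against 109 for the 60 members. The limit on L leaves room for larger ratios nearer 0 CPM, so the ratios of the 5123 cannot be set directly against those of the members. With 1 library per point, and with members chosen by rule on the early levels and on high GATA4 levels at 24 h, the ratios of the members carry no test and do not show an early effect of GATA4.

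The sums did not rest on 1 member. Without the 1 member that held the most early counts, the ratios at 5 and 7.5 h were 2.96 and 2.51 with GATA4-GR, 2.04 and 1.92 for GATA4-GR+Dkk-1 and 1.03 and 1.23 with Nodal5. Of the 60 low members, 52 had a higher mean CPM in the 6 early GATA4 libraries than in the 6 other early libraries, 7 a lower one and 1 an equal one. In 5 members the 6 other libraries were all at 0 while the GATA4 libraries together had more than 3 counts, and the converse was seen in 1. These tallies use the same early values and are a description as well. They were not made over the 5123 gene models of the same early class, but a count by library was. With GATA4-GR, 41.67%, 70% and 73.33% of the 60 members were above control at 2.5, 5 and 7.5 h. The shares of the 5123 were 42.75%, 51.45% and 54.87%. With GATA4-GR+Dkk-1 the members had 40%, 68.33% and 68.33%, and the 5123 had 44.72%, 51.04% and 46.28%. The 5123 were not matched for level, so these shares cannot be set directly against each other. The members were kept for high GATA4 levels at 24 h and may not be independent of each other. The tallies therefore do not show an early effect of GATA4.

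**Figure D3:**
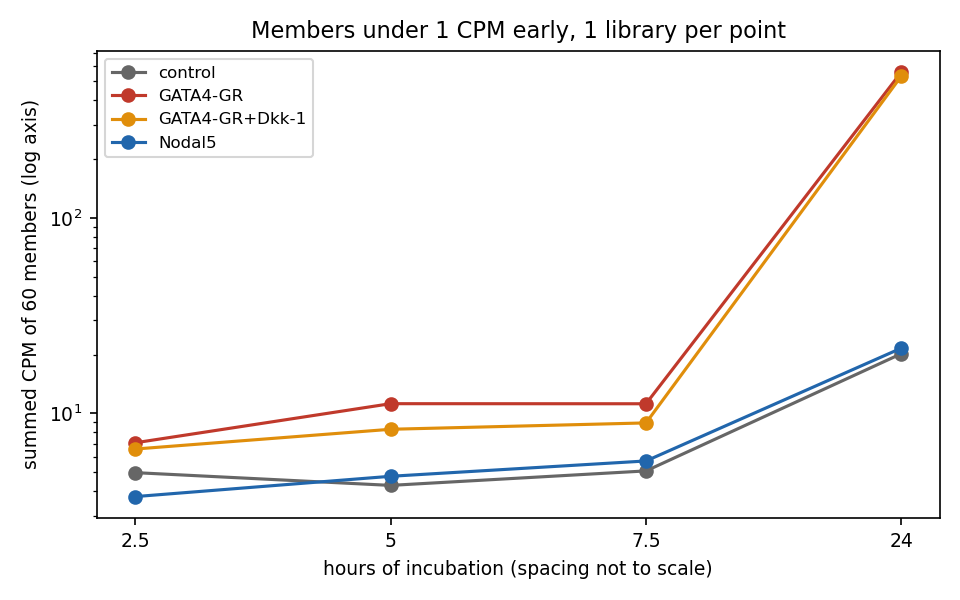
Summed CPM of the 60 members under 1 CPM early, on a log axis, at each of the 4 hours, with 1 library per point and 1 line per treatment. Control and Nodal5 run close together, and both GATA4 lines lie above them before reaching 559 and 534 at 24 h.

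The effect of adding Dkk-1 was examined next. The rule required both GATA4 treatments to be high at 24 h but did not order them. It left out gene models that reached the limit in only 1 of them. With GATA4-GR alone required it gave 94 members, and with GATA4-GR+Dkk-1 alone 95. The difference between the GATA4 treatments was thus limited in part by the rule. L with GATA4-GR+Dkk-1 minus L with GATA4-GR ranged from -1.79 to 0.90 with a median of -0.01, and was above 0 in 34 of the 74 members. It was within 0.5 in 58 members (78.38%), compared with 87.85% of all gene models. No member was higher with Dkk-1 by 1 or more (1.07% of all gene models were) and 2 were lower by 1 or more (1.19% of all gene models were). The share of members within 0.5 was thus below that of all gene models, and differences lay on both sides of 0. These shares were not matched for level. Gene models near 0 CPM in both libraries cannot differ by 0.5, whereas every member had 3.17 CPM or more in both.

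The 2 lower members are described by their counts. In the first, 190 counts with GATA4-GR and 57.9 after adding Dkk-1 gave a CPM ratio of 0.242 (95% exact counting interval, 0.177 to 0.326). In the second the counts were 401 and 173. At the other end the highest ratio was 2.1 (1.5 to 2.98), from 49 and 130 counts. Xelaev16000676m.g, with a ratio of 0.502 (0.474 to 0.531), lay just short of the limit.

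Over the 4 hours together, the GATA4-GR+Dkk-1 and GATA4-GR libraries were compared with edgeR's quasi-likelihood test, with hour as a block, on all gene models that passed its filter on low counts. With 1 library per treatment and hour, its error comes from how the difference varied between hours. The p-values therefore hold no measure of variation between replicate explants. At an adjusted p below 0.1, 0.105% of the 23749 gene models tested were called higher with Dkk-1 (25) and 0.152% lower (36). Only 16 of the 74 members passed the filter and 0 were called. None of the 16 had an unadjusted p below 0.05 in edgeR's test, and 3274 of the 23749 gene models tested did. With only 16 members tested, this does not set them apart from all gene models. DESeq2 also called 0 members. Other settings did call members, 3 of them without the filter on low counts and 1 without the libraries of 24 h, and leaving out each hour in turn moved the 61 calls over all gene models to between 0 and 3854. The smallest adjusted p among the 16 in edgeR's test was 0.367. The test asks for a shift shared by all hours. The rule held both GATA4 treatments close to the same control at the early hours and required both to be high at 24 h. Such a shift was therefore limited by selection in the 16 members tested, which did have early counts. Most of the 74 had few counts before 24 h and were not tested. The lack of calls among members thus cannot decide whether Dkk-1 affected them.

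**Figure D4:**
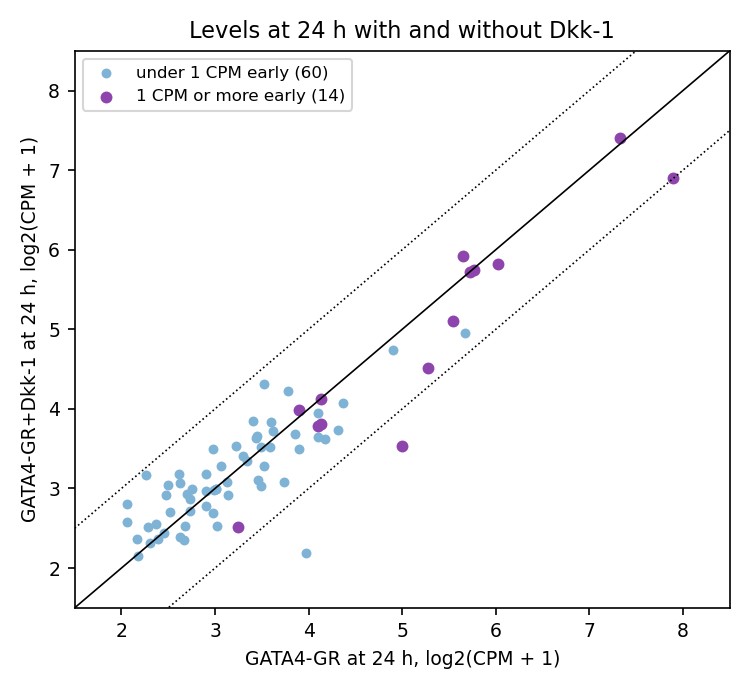
Level at 24 h, as log2(CPM + 1), with GATA4-GR on the horizontal axis and with GATA4-GR+Dkk-1 on the vertical axis, 1 point per member. The solid line marks equal levels and the dotted lines a difference of 1. Colours separate members low and present early, and 2 members lie below the lower dotted line and 0 above the upper one.

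The rule set an upper limit for Nodal5 at 24 h and no lower one. Nodal5 D was within 0.5 in 69 of the 74 members, -0.5 or less in 5 (23.5% of all gene models) and -1 or less in 1 (13.6% of all gene models). A D of -0.5 is out of reach for members that are near 0 CPM in control, so these shares cannot be set directly against those of all gene models. The median was 0.00, and that over all gene models was 0.

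The 1 member below -1 was Xelaev16000676m.g, with a Nodal5 D of -2.06, which also had the highest mean L in the 2 GATA4 libraries of 24 h. At the 4 hours in turn it had 57, 120, 100 and 221 counts in control, 70, 86, 39 and 41 with Nodal5, 52, 70, 95 and 3056 with GATA4-GR and 76, 96, 82 and 1933 with GATA4-GR+Dkk-1. The control thus rose, from 5.08 to 18.2 CPM between 7.5 and 24 h, Nodal5 did not, and both GATA4 treatments rose far above the control. CPM at 24 h was 18.2 in control, 3.58 with Nodal5, 236 with GATA4-GR and 119 with GATA4-GR+Dkk-1, or 0.197, 13.0 and 6.53 times control in the treatments.

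The member with the next lowest Nodal5 D, of -0.98, was Xelaev16009751m.g. Its counts at the 4 hours in turn were 99, 145, 112 and 54 in control, 87, 139, 56.9 and 20.2 with Nodal5, 95, 112, 148 and 637 with GATA4-GR and 125, 143, 109 and 972 with GATA4-GR+Dkk-1. It was present in every library. From 7.5 to 24 h the control counts fell from 112 to 54. Control CPM, scaled with the TMM factor of 0.71 at 24 h, went from 5.69 to 4.44. With Nodal5 the CPM fell from 4.92 to 1.765. At 24 h it was highest with Dkk-1, at a CPM ratio of 1.21 to GATA4-GR alone (95% exact counting interval, 1.09 to 1.34). At 24 h it stood at 0.398 times control with Nodal5, 11.1 times with GATA4-GR and 13.4 times with GATA4-GR+Dkk-1.

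**Figure D5:**
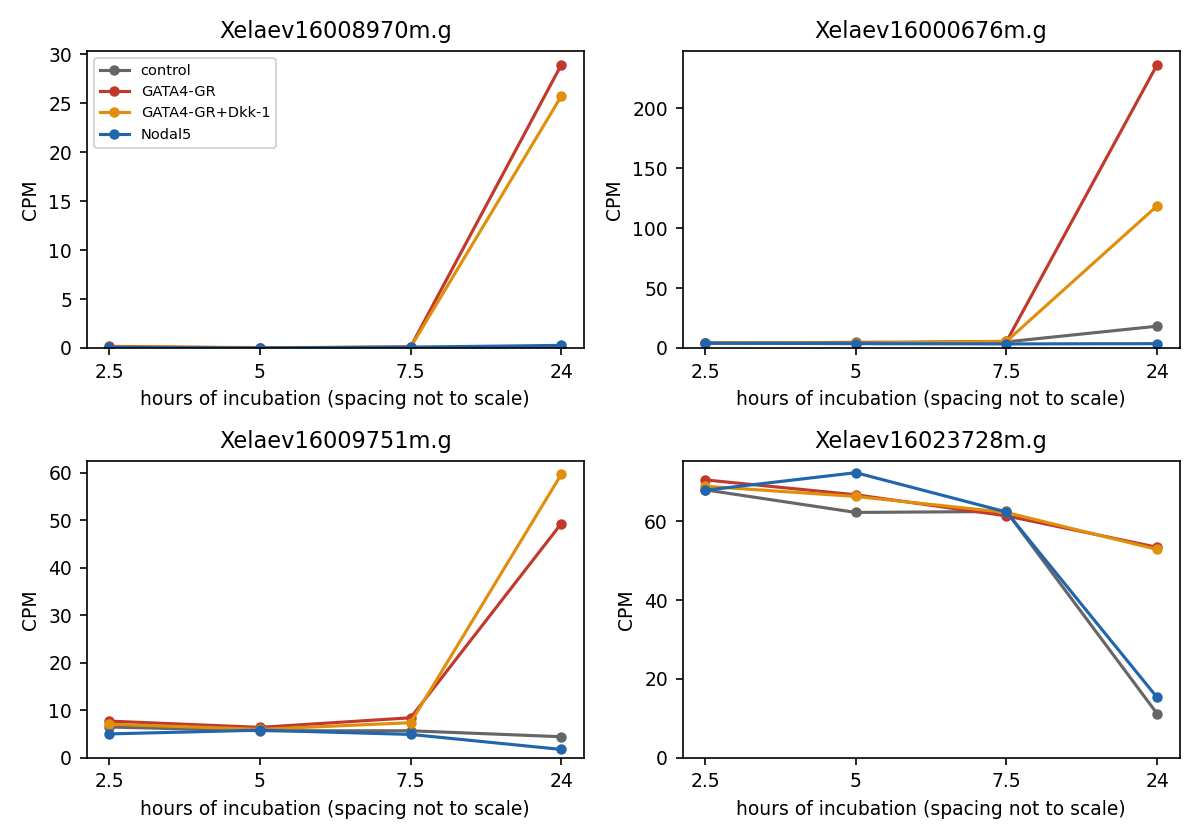
CPM of the 4 named members at each hour, 1 library per point and 1 line per treatment, each panel with its own vertical axis from 0. In 3 panels the GATA4 lines climb between 7.5 and 24 h, and in that of Xelaev16023728m.g the control and Nodal5 lines drop to 11.2 and 15.3 while both GATA4 lines stay above 50.

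Other features of the members were not used by the rule. RSEM divides a read that maps to several gene models among them, which leaves expected counts that are not whole numbers. Such values made up 12.75% of those of the members against 47.94% of those of all gene models, and 44 of the 74 members had whole counts in all 16 libraries, against 17.47% of gene models. The share per member was 0 to 31.25% among the 60 members under 1 CPM early and 0 to 100% among the 14 others. The low share of the whole list thus did not hold in each member. The part that the low counts of most members have in this gap was not tested. This frog is allotetraploid and carries paired copies of many genes, so values that are not whole are uncertain between near-identical copies.

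The identifiers end in a running number, and 6 members bore consecutive numbers. In these 6 the early libraries had 0 to 6 counts each, and at 24 h there were 1 to 4 counts in control, 0 to 7 with Nodal5, 55 to 114 with GATA4-GR and 68 to 157 with GATA4-GR+Dkk-1. The gene model numbered just before the run, not a member, had 7, 0.83, 28 and 49 counts in that order of treatments, and the one just after had 1, 0, 3 and 7. A second pair of members also bore consecutive numbers, so that the 74 members form 68 separate runs and single identifiers. Whether consecutive numbers are neighbouring genes or pieces of 1 gene is not given in the sources used here, and members of a run may not be independent of each other.

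The same rule was applied with the treatments exchanged, for comparison only. It gave 170 gene models late with Nodal5 and not with GATA4, and 30 late in all 3 treatments. The share under 1 CPM early was 81.08% in the 74 members, 71.18% in the 170 and 46.67% in the 30. The share in which the control fell by 1 or more from 7.5 to 24 h was 8.108%, 16.47% and 46.67%. Such a fall needs a control L of 1 or more at 7.5 h, which only 13 of the 74 members had. As the lists differ in their share of low gene models, these shares of falls cannot be compared. As the lists share the control libraries and were selected on these values, the differences were not tested.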

How the data were processed

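Poly(A) RNA from Xenopus laevis animal caps was sequenced in 16 libraries. Read pairs were mapped by the authors with Bowtie against JGI gene models, release v7.2, and the RSEM expected counts were deposited without normalization. Identifiers matched in the RefSeq gene table: 0 of 54142, so no gene names, roles or sequences are given.

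Libraries were scaled by TMM in edgeR 4.0.16 (R 4.3.3) and the selection rule was applied to log2(CPM + 1) of gene models with at least 50 counts in total. The members and lists were chosen with earlier results of these data known. Because the members were selected on these libraries, which have 1 library per treatment and hour, their levels are described without a test. Expected counts were rounded for the Dkk-1 comparison alone, made over 8 libraries with hour as a block (filterByExpr minimum count 10, 3 residual degrees of freedom, Benjamini-Hochberg adjustment over all models tested, threshold 0.1). DESeq2 1.42.0 was an alternative. Count ratios at 24 h have exact binomial intervals at 95%, and a count of 0 allows up to 3 counts. Both cover counting error only.

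Members named were the one with the highest smaller D, the one with the highest mean level with GATA4 at 24 h and the 2 with the lowest Nodal5 D, with 1 exception stated in the text. The 1 CPM early class, the summed early counts and the identifier runs were added after the data were seen. The alternatives tried were the added pseudocount, scaling, filters, thresholds, the early hours used and the test.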

Additional observations from a re-analysis of the deposited data

How the results depend on the processing

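The number of members followed the limits of the rule: 162 with a 24 h threshold of 1.5 and 18 with 3, 34 with an early limit of 0.3 and 154 with 1, and 113 without the 7.5 h limit. It was 52 to 101 under the 12 other alternatives. Of the 74, 35 were members with a pseudocount of 0.5 and 36 with 2, against 70 with median-of-ratios size factors and 64 with library totals, where the control fell in 12 members in place of 6. Members lower with Dkk-1 numbered 1 with a pseudocount of 0.5, and members lower with Nodal5 numbered 8 with 0.5, 8 with 2 and 3 with a total of at least 200. Under the 7 alternatives run on them, members rising with GATA4 numbered 47 to 75 and members higher with Dkk-1 numbered 0. The summed early ratio over control ranged from 2.57 to 3.67 at 5 h and from 2.09 to 3.73 at 7.5 h with GATA4-GR, and from 1.89 to 2.61 and 1.73 to 2.29 with Dkk-1, alternatives that were chosen after the data were seen.

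The Dkk-1 comparison over the hours was unstable: 61 gene models were called, 622 with DESeq2, 129 with median-of-ratios size factors, 1550 without a filter on low counts (3 of them members), 2 at an adjusted p below 0.05 and 0 with all 16 libraries in the fit. Leaving out each hour in turn gave 0 to 3854, the highest without 24 h, when 1 member was called. The causes were not tested. The libraries were matched by hour in that comparison, and the labels carry no replicate numbers for any other pairing. With a median of 2 counts in the control at 24 h, the size of most folds is not measurable at this depth.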
